A study of Glycine max with 21 samples.

Results

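The 8 genes described here form 4 homoeologous pairs of the HD-Zip I subfamily in soybean, Glyma09g37410/Glyma18g49290, Glyma08g40970/Glyma18g15970, Glyma08g14130/Glyma05g30940 and Glyma19g01300/Glyma13g23890. They were taken by name from the study's list of paired HD-Zip genes and are 8 of the 62537 gene models in the deposited tables. The first number in each gene name is its chromosome, so that the copies lie on chromosomes 9 and 18, 8 and 18, 8 and 5, and 19 and 13. HD-Zip proteins are transcription factors found in plants that carry a homeodomain followed by a leucine zipper. The zipper joins 2 proteins into a dimer, and the homeodomains then contact a short, nearly palindromic DNA site. Members of subfamily I are best known from Arabidopsis, where several take part in responses to abscisic acid (ABA), water deficit and light and in organ growth. Homoeologs are copies left on different chromosomes by a duplication of the whole genome, here the one in the Glycine lineage. The copies start out alike, and afterwards either may be kept, lost or come to differ in level from its partner.

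As background, the first pair is set here beside Arabidopsis ATHB3 and ATHB20 and the second beside ATHB13 and ATHB23. These genes have roles in shoot and root growth of Arabidopsis. The study's text does not state these placements or those that follow, and they were not tested here. The third pair is set beside ATHB6, ATHB16 and ATHB5. ATHB6 is a target of ABA signalling in Arabidopsis and ATHB5 takes part in the response of seedlings to ABA. The fourth pair is set beside ATHB1, an early known member of the family with a role in leaf and hypocotyl growth of Arabidopsis. The roles of the 8 soybean proteins themselves are not taken from these relatives here.

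The libraries came from roots of G. max cv. Williams 82 seedlings with a first trifoliolate leaf. There were 3 libraries each after 1, 6 and 12 hr of dehydration, imposed by leaving the plants in air, after 1, 6 and 12 hr in 100 mM NaCl (salt stress), and of control plants at 0 hr, 21 libraries in 7 groups of 3. The study describes the 3 libraries of a group as biological replicates, and all groups share the same genotype and growth conditions. All controls were harvested at 0 hr, and a change against them therefore includes any change over those hours in unstressed roots. Root tissue was used, in which fewer cells of a type and less RNA per cell cannot be told apart. No markers of root tissue could be matched to these gene models, and the tissue label was not checked here.

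Each library holds between 3752853 and 28177205 counts of uniquely mapped reads, with a median of 6956557. Levels are given as CPM, counts per 1000000 counts of a library, scaled for library composition by the TMM method of edgeR. The libraries were run in 3 lanes of 7. The 6 salt libraries of 1 and 6 hr and 1 of the salt libraries of 12 hr filled lane 2, which held no control. For salt at 1 and 6 hr the lane and the treatment can therefore be told apart only through that library. All dehydration libraries of 1 hr were in lane 3 and all those of 12 hr in lane 4. Control replicates 1 and 2 were in lane 4 and control replicate 3 in lane 3. Lane and treatment were thus partly mixed for dehydration too. Salt and dehydration libraries of 1 hr shared no lane, nor did those of 6 hr. Of the 62537 gene models, 36691 passed the filter on low counts and were tested, among them all 8 members. The values between genes are not per length. A ratio between copies is a ratio of counts, which also moves with the length of each gene model and with the part of it where a short read maps to a single place.

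The copies of each pair differed in level in the same direction in every library (no test, since the pairs were chosen with their levels known). Glyma08g14130, Glyma05g30940 and Glyma19g01300 were abundant, with means over the 21 libraries of 578, 257 and 180 CPM. By mean log2 CPM these genes lie above 99.9%, 99.1% and 98.5% of the tested genes. The means of Glyma08g40970, Glyma13g23890, Glyma18g15970 and Glyma18g49290 were 38.9, 17.7, 17.7 and 11.0 CPM. Glyma09g37410 was the rarest at 1.69 CPM, and by mean log2 CPM it lay above 10.2% of tested genes. Among the 34 HD-Zip I genes with a row in the tables, ordered by mean CPM, the 8 genes took places 1, 4, 5, 11, 18, 19, 20 and 26. Together they held between 35.1% and 53.4% of all HD-Zip I counts in a library, with a median of 41.9%, and Glyma08g14130 alone held 18.2% to 29.4%.

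**Figure D1:**
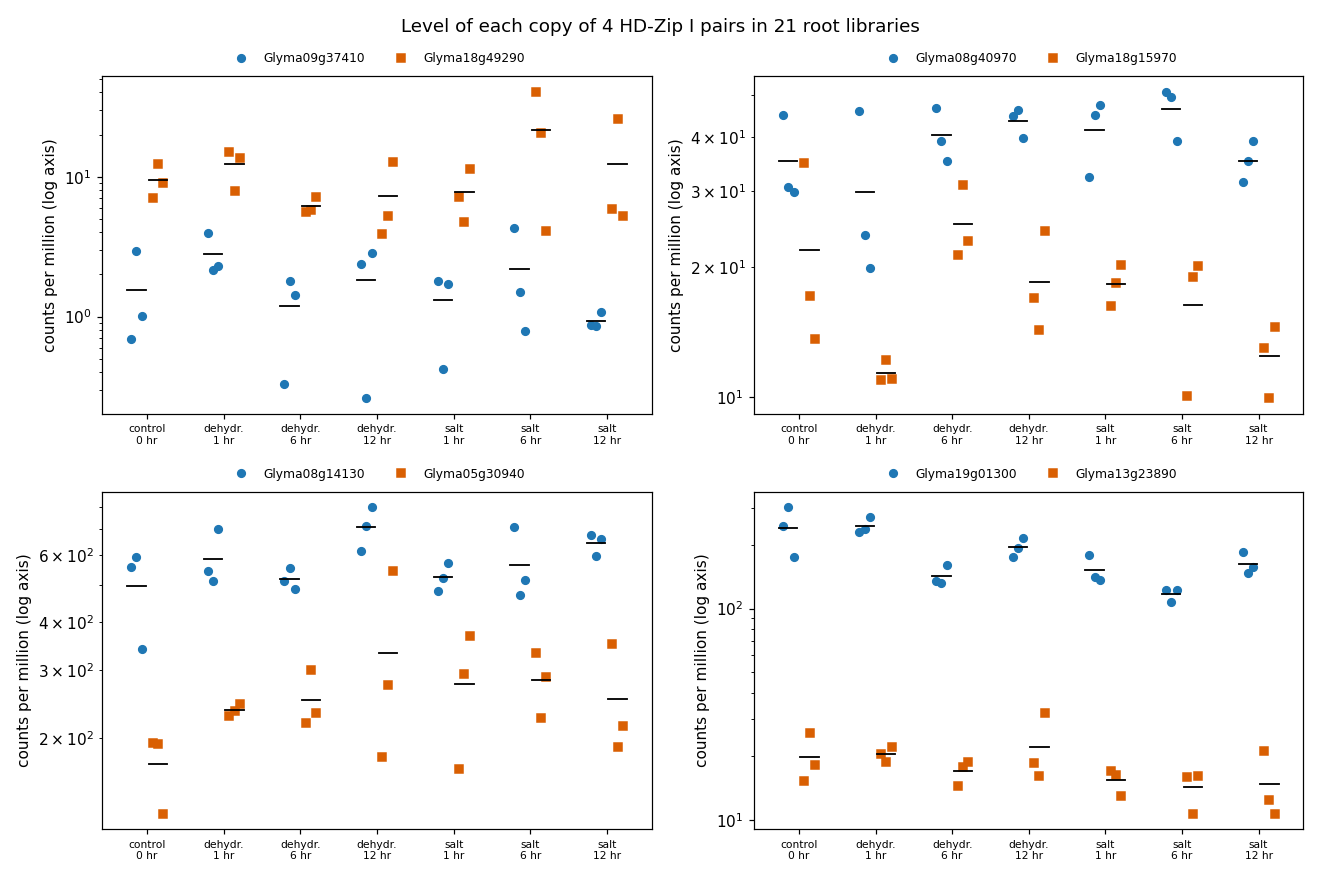
Level in CPM (log axis) of both copies of the 4 pairs in each of the 21 root libraries, by group. Circles and squares are single libraries of the first and second copy and black bars are group means of 3 libraries. The points of the copies of a pair stay apart within each library, whereas the libraries of 1 group can spread widely, as Glyma18g49290 does after 6 hr of salt (4.09 to 40.5 CPM).

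Against the control, 1 of the 48 gene and time point combinations was called differentially expressed (DE), which required an adjusted p under 0.05 (edgeR's quasi-likelihood test, Benjamini-Hochberg over all 36691 genes) and a fold change of at least 2. The call was Glyma19g01300, lower after 6 hr of salt. None of the 8 genes was called after 1, 6 or 12 hr of dehydration, where 2.59%, 2.03% and 2.01% of all tested genes were called. None was called after 1 or 12 hr of salt, where 1.6% and 12.4% of all genes were, and 1 of 8 was called after 6 hr of salt, where 9.66% were (3.16% in the direction of lower). With 8 genes, these counts do not set the members apart from the background. At an unadjusted p under 0.05, the members gave 1, 1 and 2 genes after 1, 6 and 12 hr of dehydration, where 20.8%, 15.5% and 12.5% of all genes passed. They gave 1, 1 and 2 genes after 1, 6 and 12 hr of salt, where 15%, 28.4% and 32.2% of all genes passed. Libraries did not overlap with the controls for 2, 2 and 1 members in the order of dehydration times, beside 26.2%, 20.3% and 17.4% of all genes. For the salt times this held for 0, 2 and 1 members, beside 20.3%, 28.9% and 37.2%. The median log2 fold change of the 8 genes ran from -0.23 (salt, 1 hr) to 0.29 (salt, 6 hr), beside a median of all tested genes between -0.04 and 0.02 in the 6 comparisons.

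**Figure D2:**
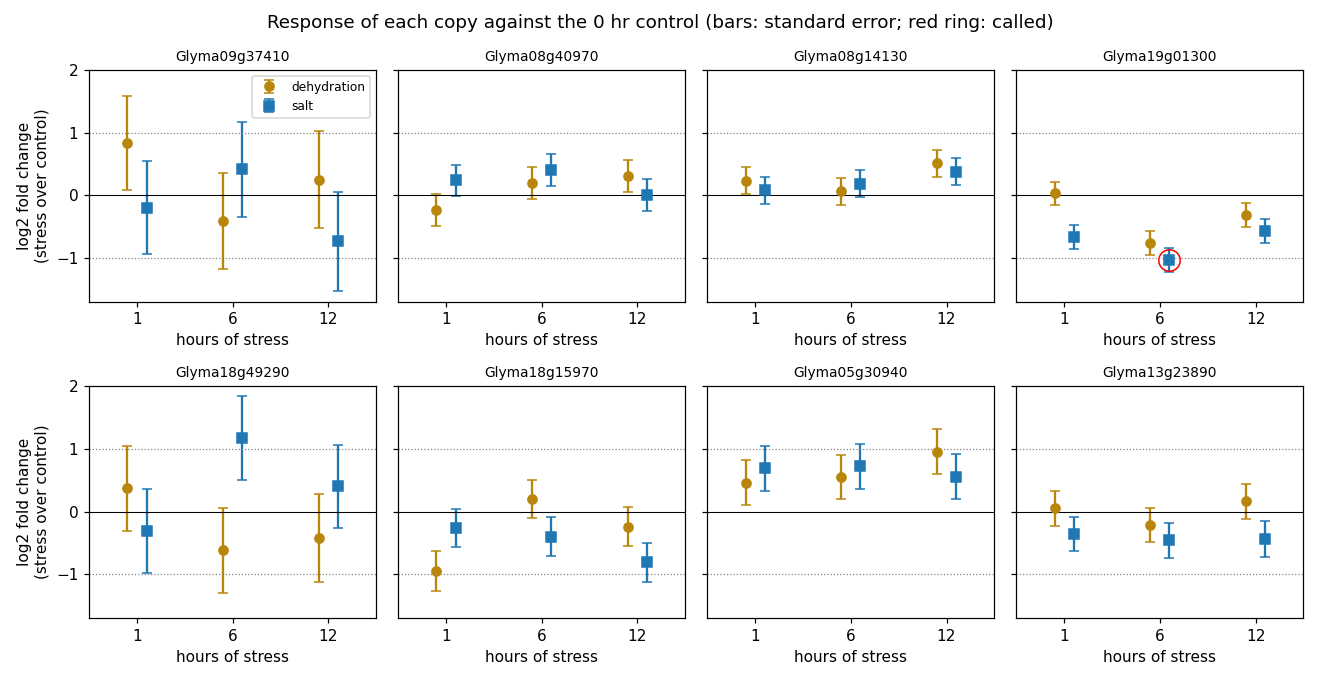
Log2 fold change of each gene over the 0 hr control after 1, 6 and 12 hr of dehydration (circles) and salt (squares), with the standard error of the fit. The upper row holds the first copy of each pair and the lower row the second, dotted lines mark a 2-fold change, and the red ring marks the call, Glyma19g01300 after 6 hr of salt (-1.03).

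Glyma19g01300 was the single member called against the control, and the single member past the threshold over the 7 groups (edgeR). Its level was 123, 108 and 123 CPM in the 3 libraries of 6 hr of salt, against 245, 302 and 176 CPM in the control libraries. The groups did not overlap, and the highest salt library lay below the lowest control. The means were 118 ± 8.64 and 241 ± 63.2 CPM (SD, n = 3 each), a log2 fold change of -1.03 (SE 0.19, adjusted p = 0.00246, edgeR). The size sat at the 2-fold limit. Without control replicate 2, the highest of the 3 controls, the log2 fold change was -0.84 (adjusted p = 0.0157), and without salt replicate 2 it was -0.98 (adjusted p = 0.0136), so that either omission ended the call through the fold limit alone. With lane as a term in the model the log2 fold change was -1.23 with an adjusted p of 0.135. DESeq2 gave -1.01 (adjusted p = 2.65e-06), and without control replicate 3 it was -1.22 (adjusted p = 0.00137). The call held in 6 of 10 other settings and in 19 of 21 fits with 1 library left out.

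The other time points of Glyma19g01300 under salt were also below the control mean. After 1 hr of salt its libraries had 179, 141 and 137 CPM, with an overlap of 1 library with the lowest control. The log2 fold change was -0.66 (SE 0.19, adjusted p = 0.08). It was -0.64 with DESeq2 (adjusted p = 0.0163) and -0.86 with lane as a term (adjusted p = 0.605). After 12 hr of salt the values were 185, 147 and 157 CPM, with the same kind of overlap. The change was -0.57 (SE 0.19, adjusted p = 0.0453), which passed the p threshold but not the fold limit. It did not pass the p threshold without control replicate 2 (-0.37, adjusted p = 0.222) or control replicate 1 (adjusted p = 0.0893), with lane as a term (adjusted p = 0.0701) or with the replicate block (adjusted p = 0.0678). It passed that threshold with DESeq2 (-0.53, adjusted p = 0.0219) and without control replicate 3 (-0.75, adjusted p = 0.0158), both within the fold limit. Among the salt groups the mean level was lowest at 6 hr, but the salt time points were not tested against each other.

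Under dehydration Glyma19g01300 was lower at 6 hr, within the fold limit. It had 135, 132 and 161 CPM after 6 hr of dehydration, against 245, 302 and 176 CPM in the control, again without overlap (log2 fold change -0.76, SE 0.19, adjusted p = 0.0401). With lane as a term the adjusted p was 0.122 and the log2 fold change -0.62, without control replicate 2 they were 0.226 and -0.56, and without control replicate 1 they were 0.102 and -0.75. With DESeq2 they were 0.00167 and -0.77, and without control replicate 3 they were 0.00939 and -0.94, both within the fold limit. After 1 hr of dehydration the values were 231, 239 and 270 CPM, inside the range of the controls, and the log2 fold change was 0.03 (SE 0.19). After 12 hr they were 176, 194 and 215 CPM, with a log2 fold change of -0.31 (SE 0.19, adjusted p = 0.565). Salt and dehydration were compared directly at each time point. At 1 hr the salt libraries of Glyma19g01300 all lay below those of dehydration. The log2 difference was -0.70 with an unadjusted p of 0.0016, but its adjusted p was 0.331 (edgeR). It was -1.15 with lane as a term. DESeq2 gave -0.70 with an adjusted p of 0.0492, within the fold limit. By edgeR no gene of the 36691 was called in that comparison, although 9.9% had an unadjusted p under 0.05.

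Glyma13g23890, the partner of Glyma19g01300, was present at a lower level in every library. Its values were 16.0, 10.7 and 16.1 CPM after 6 hr of salt and 15.3, 25.8 and 18.2 CPM in the control. These groups overlapped, and the log2 fold change was -0.46 (SE 0.28, adjusted p = 0.3). All of its salt fold changes were negative (-0.36, -0.46 and -0.43 at 1, 6 and 12 hr) and none passed. Under dehydration they were 0.05, -0.21 and 0.16. The difference between salt and dehydration was largest at 12 hr, where salt libraries had 21.2, 12.5 and 10.7 CPM and dehydration libraries 18.6, 16.1 and 32.0 CPM, a log2 difference of -0.60 (SE 0.28) with an unadjusted p of 0.0498 and an adjusted p of 0.159.

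The share of the pair's counts on Glyma19g01300 was narrowly spread, from 87.0% to 94.1% in the 21 libraries with a median of 90.9%. The highest share was in control replicate 1, with 1783 counts against 111. The lowest share was in dehydration replicate 3 of 12 hr, with 832 counts against 124 (exact Clopper-Pearson 95% interval 84.7% to 89.1%). By group the share was 89.3% ± 1.10 after 6 hr of dehydration and 89.3% ± 1.46 after 6 hr of salt, against 92.3% ± 1.77 in the control (SD, n = 3 each). The log2 count ratio of Glyma19g01300 over Glyma13g23890 was lower by 0.54 at 6 hr of dehydration, with no overlap, and by 0.55 at 6 hr of salt, with overlap (limma, SE 0.25). The unadjusted p-values were 0.0452 and 0.0436, and adjusted over the 27 HD-Zip pairs tested they were 0.407 and 0.188. With lane as a term the ratio at 6 hr of salt was instead higher than in the control, by 0.09.

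Glyma08g14130 and Glyma05g30940 were the most abundant of the 4 pairs. Glyma08g14130 had 557, 594 and 341 CPM in the control, 544, 513 and 701 CPM after 1 hr of dehydration, 514, 555 and 490 CPM after 6 hr, and 614, 714 and 800 CPM after 12 hr. Under salt it had 482, 521 and 573 CPM at 1 hr, 710, 471 and 517 CPM at 6 hr, and 675, 596 and 662 CPM at 12 hr. All 6 fold changes over the control were positive but small, from 0.06 to 0.51 on the log2 scale (SE 0.22). The libraries of 12 hr of dehydration and of 12 hr of salt lay above all controls, by a narrow margin of 596 against 594 CPM in the salt case. Neither comparison passed: the log2 fold changes were 0.51 after dehydration (adjusted p = 0.309) and 0.37 after salt (adjusted p = 0.247).

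Glyma05g30940 was likewise above the control mean in all 6 comparisons, by log2 fold changes of 0.46 to 0.96 (SE 0.35 to 0.36), and none was called (adjusted p from 0.191 upwards). Its control libraries had 194, 193 and 127 CPM, the lowest mean of the 7 groups. They were exceeded by every library of 1 hr of dehydration (228, 235 and 245 CPM), 6 hr of dehydration (219, 301 and 233 CPM) and 6 hr of salt (334, 225 and 289 CPM). The largest change was at 12 hr of dehydration, where the libraries had 178, 275 and 543 CPM. These spread across a 3-fold range and overlapped the control (log2 fold change 0.96, adjusted p = 0.223). After 1 hr of salt its libraries had 166, 294 and 369 CPM and after 12 hr 352, 190 and 215 CPM, and both groups overlapped the control. Since every fold change of a gene here is set against the same 3 controls, the shared sign is not repeated evidence.

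Glyma08g14130 held 59.6% to 77.5% of the pair's counts, with a median of 70.1%, and both extremes fell in the same group, 12 hr of dehydration. In that group the shares of the 3 libraries were 77.5%, 72.2% and 59.6%. The lowest of them came from the library in which Glyma05g30940 reached 543 CPM. The control libraries were close together, at 74.2% ± 1.30 (SD, n = 3), and the group mean was lower in all 6 stressed groups, between 66.4% and 72.3%. After 6 hr of salt the share was 66.6% ± 2.14 and the log2 ratio of Glyma08g14130 over Glyma05g30940 was lower than in the control by 0.53 (SE 0.30), without overlap. The adjusted p was 0.242 (limma). Over the 18 stressed and 3 control libraries the mean log2 ratios were 1.17 and 1.52, a difference of -0.36 (exact two-sided permutation test over 1330 regroupings, p = 0.109, adjusted over 27 pairs p = 0.396).

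Glyma08g40970 and Glyma18g15970 were of middle abundance. Glyma08g40970 had 45.1, 30.6 and 29.9 CPM in the control, 46.0, 23.7 and 19.9 CPM after 1 hr of dehydration, 46.7, 39.2 and 35.3 CPM after 6 hr, and 44.7, 46.3 and 39.7 CPM after 12 hr. Under salt it had 32.3, 45.1 and 47.5 CPM at 1 hr, 50.9, 49.6 and 39.1 CPM at 6 hr, and 31.4, 35.2 and 39.2 CPM at 12 hr. Each stressed group overlapped the control. Its log2 fold changes lay between -0.24 and 0.40 (SE 0.25 to 0.26), and the smallest adjusted p was 0.319.

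Its partner Glyma18g15970 varied more. In the 3 libraries of 1 hr of dehydration it had 10.9, 12.2 and 11.0 CPM, against 34.8, 17.2 and 13.7 CPM in the control, without overlap. The log2 fold change was -0.94 (SE 0.32, adjusted p = 0.108), and -0.62 with lane as a term. After 12 hr of salt it had 13.0, 9.94 and 14.5 CPM, overlapping the lowest control (log2 fold change -0.81, SE 0.31, adjusted p = 0.0843). Both values turned on the wide spread of the controls. Without control replicate 3, the lowest, both were called (-1.19, adjusted p = 0.0464, and -1.06, adjusted p = 0.0429). Without control replicate 1, the highest, the log2 fold changes were -0.43 and -0.30 (adjusted p = 0.548 and 0.501). Of its remaining groups, those dehydrated for 6 hr had 21.4, 30.9 and 23.1 CPM and those dehydrated for 12 hr had 17.0, 14.3 and 24.3 CPM. The salt libraries had 16.2, 18.4 and 20.2 CPM (1 hr) and 10.1, 19.0 and 20.1 CPM (6 hr). Its salt libraries of 1 hr all lay above those of dehydration at 1 hr, a log2 difference of 0.68 with an unadjusted p of 0.0459 and an adjusted p of 0.497. With lane as a term that difference was 0.36.

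Glyma08g40970 held 55.9% to 83.5% of the counts of its pair, with a median of 68.6%. The 2 nearest approaches to equal counts were dehydration replicate 2 of 6 hr, with 326 counts against 257 (55.9%, 95% interval 51.8% to 60.0%), and control replicate 1, with 328 against 253. The highest share was in salt replicate 1 of 6 hr, with 248 counts against 49. By group the share was 73.9% ± 8.87 after 6 hr of salt, against 61.7% ± 6.43 after 6 hr of dehydration (SD, n = 3 each). The log2 ratio of Glyma08g40970 over Glyma18g15970 differed by 0.86 between them (SE 0.38, unadjusted p = 0.0367, adjusted p = 0.229, limma), with overlap. The control share was 63.0% ± 6.15, and over the 18 stressed libraries the mean log2 ratio was 1.25, against 0.78 in the 3 controls (p = 0.141, exact permutation test, adjusted p = 0.396).

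Glyma09g37410 and Glyma18g49290 were the least abundant pair, with 21 to 266 counts in a library for both copies together. Glyma09g37410 had 5, 26 and 9 counts in the control. It had 21, 10 and 13 counts after 1 hr, 3, 15 and 11 after 6 hr, and 16, 1 and 11 after 12 hr of dehydration. Salt libraries held 54, 3 and 12 counts (1 hr), 21, 6 and 11 counts (6 hr) or 4, 8 and 9 counts (12 hr). The 54 counts come from the deepest library and correspond to 1.81 CPM. Its level was between 0.260 and 4.31 CPM. Its 6 log2 fold changes over the control lay between -0.73 and 0.84 (SE 0.74 to 0.79). None was called, and the smallest adjusted p was 0.553 (edgeR).

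Glyma18g49290 was spread as widely, at a higher level. It had 40.5, 20.5 and 4.09 CPM after 6 hr of salt, against 5.62, 5.77 and 7.16 CPM after 6 hr of dehydration and 7.01, 12.3 and 9.06 CPM in the control. In 2 of these 3 salt libraries it was above every library of the control and of 6 hr of dehydration. In the remaining salt library it was below all of those. The log2 difference of salt over dehydration was 1.78 (SE 0.69, unadjusted p = 0.0185, adjusted p = 0.0714, edgeR). With lane as a term it was 3.12 (adjusted p = 0.268). Without salt replicate 3 of 6 hr it was 2.30 and was called (adjusted p = 0.0129). It was also called without salt replicate 2 of 12 hr (1.78, adjusted p = 0.0412) and by DESeq2 with all libraries (1.84, adjusted p = 0.0292). Against the control the log2 fold change at 6 hr of salt was 1.17 (SE 0.67, adjusted p = 0.267). After 12 hr of salt its libraries had 5.85, 26.0 and 5.24 CPM, so that 1 library again stood apart from the other 2. Roots dehydrated for 1 hr had 15.1, 7.90 and 13.7 CPM, those dehydrated for 12 hr had 3.87, 5.20 and 12.6 CPM, and those in salt for 1 hr had 7.11, 4.77 and 11.3 CPM.

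In this pair the copy on chromosome 18 led. Glyma18g49290 held 61.9% to 96.8% of the counts with a median of 85.6%, and its mean count ratio over Glyma09g37410 was 6.30. The lowest share was in dehydration replicate 1 of 12 hr, with 16 counts of Glyma09g37410 and 26 of Glyma18g49290, the only library of the 21 whose exact 95% interval (45.6% to 76.4%) reached equal shares. In the other 3 pairs the interval lay above 50% for the leading copy in all 21 libraries. These intervals cover counting error only.

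**Figure D3:**
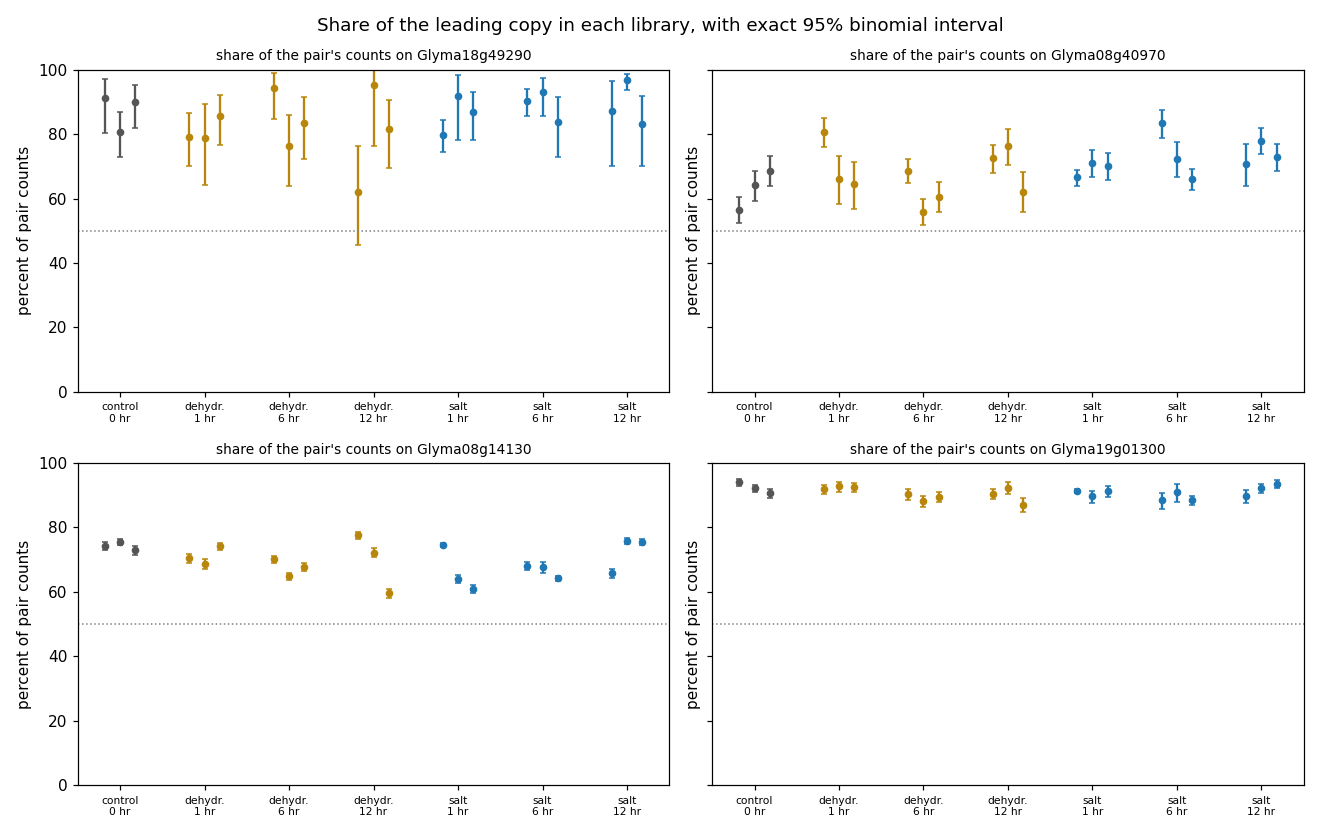
Percent of a pair's counts on its leading copy in each library, by group, with the exact Clopper-Pearson 95% interval. Gray, gold and blue points are control, dehydration and salt libraries and the dotted line marks equal counts. All points lie above the line, and the intervals are wide for Glyma18g49290, whose pair had as few as 21 counts.

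Between salt and dehydration, 0 of the 8 genes were called at 1, 6 or 12 hr, where 0%, 14.7% and 11.6% of all tested genes were called. At an unadjusted p under 0.05 (edgeR) there were 2, 1 and 1 members, beside 9.9%, 35% and 31.4% of all genes. DESeq2 gave 1 call among these 24 combinations, that of Glyma18g49290 at 6 hr. The libraries of salt and dehydration did not overlap for 4 of 8 members at 1 hr, beside 16.3% of all genes. These were Glyma09g37410, Glyma19g01300 and Glyma13g23890, lower under salt, and Glyma18g15970, higher under salt. Their adjusted p-values were 0.331 to 0.657 (edgeR), and Glyma19g01300 and Glyma13g23890 are copies of the same pair. All salt libraries of 1 hr were in lane 2 and all dehydration libraries of 1 hr in lane 3. The libraries of the stresses did not overlap for 2 members at 6 hr and 1 at 12 hr, beside 36.2% and 35% of all genes.

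Over the 7 groups at once, 1 of the 8 genes differed, beside 35% of all tested genes (edgeR, any difference between groups, adjusted p under 0.05). This was Glyma19g01300 (adjusted p = 0.00173, and 0.00765 with lane as a term). Glyma18g15970 was next with an adjusted p of 0.0583. DESeq2's likelihood ratio test put it past the threshold (adjusted p = 0.0294). The other 6 genes had adjusted p-values between 0.25 and 0.568. For some of these genes the result turned on a single library: without dehydration replicate 1 of 1 hr Glyma08g40970 passed (adjusted p = 0.0305, against 0.343 with all libraries), and without salt replicate 3 of 6 hr Glyma18g49290 passed (0.0474, against 0.25). Glyma18g15970 passed without control replicate 1, control replicate 3 or salt replicate 1 of 6 hr (0.0265, 0.0251 and 0.0382). A p-value above the threshold does not show that a level was constant, and the spread within groups bears on it as much as the means do.

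The size of the variation was therefore described separately, by the range between the highest and the lowest group mean of log2 CPM. Glyma08g14130 had the smallest range of the 8, 0.55, with its highest group at 12 hr of dehydration and its lowest in the control. A smaller range was found for 17.2% of all tested genes. Glyma13g23890 had 0.60 (20.9% of genes below), Glyma08g40970 0.73 (30.7%) and Glyma05g30940 0.83 (37.6%). These 4 genes were under the median of all tested genes, 1.04. Glyma19g01300 had 1.07 (51.4%) and Glyma18g15970 1.12 (54.1%). The rarest pair had the widest ranges, 1.28 (61.3%) for Glyma18g49290 and 1.48 (68.3%) for Glyma09g37410. A low count widens the range by itself, and the part of depth in these ranges was not tested.

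**Figure D4:**
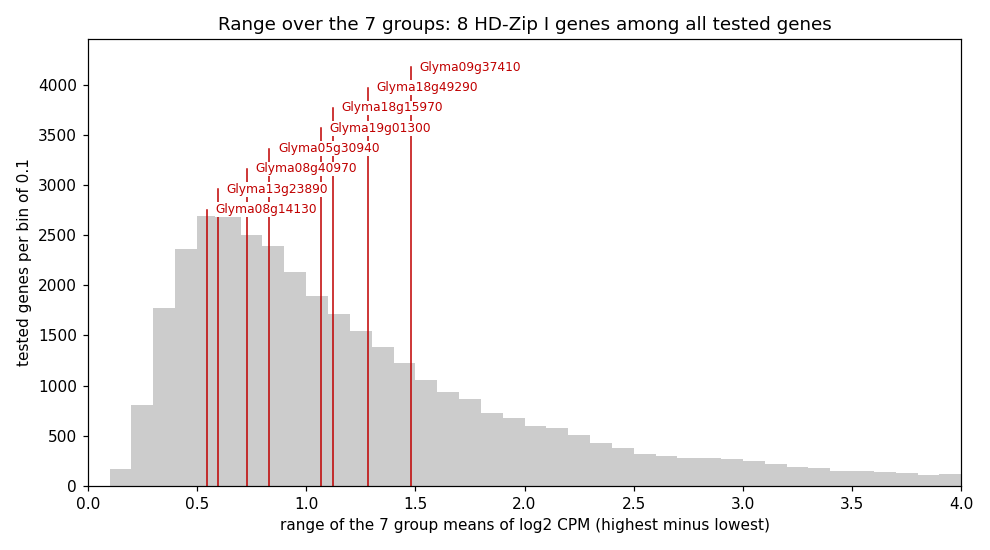
Number of tested genes (bars, in bins of 0.1) by the range between the highest and lowest of the 7 group means of log2 CPM, with the 8 HD-Zip I genes as red lines. The axis ends at 4, beyond which lie 1559 genes. The members run from 0.55 (Glyma08g14130) to 1.48 (Glyma09g37410), and 4 of 8 lie under the median of 1.04.

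The spread within groups ordered the genes differently. The SD of log2 CPM between libraries of a group was 0.21 for Glyma19g01300, lower than for all but 13.2% of tested genes, and 0.24 for Glyma08g14130 (21.1%). It was 0.32 for Glyma08g40970, 0.36 for Glyma13g23890 and 0.40 for Glyma18g15970. It was 0.46 for Glyma05g30940, above the 0.41 of the median gene, and 0.93 and 1.11 for Glyma18g49290 and Glyma09g37410. Thus in Glyma19g01300, the single member past the threshold over the 7 groups (edgeR), a range near that of the median gene stood beside the smallest spread of the 8. The coefficient of variation of CPM over all 21 libraries was lowest for Glyma08g14130 (18.2%) and Glyma08g40970 (22.1%) and highest for Glyma18g49290 (80.3%).

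The count ratios of the 4 pairs were next set among those of the 27 HD-Zip pairs of which both copies passed the filter. These came from 43 pairs taken from the study's list, slightly fewer than its text counts. The mean log2 ratio of the first over the second copy was 3.33 for Glyma19g01300/Glyma13g23890, a 10.04-fold ratio, and -2.66 for Glyma09g37410/Glyma18g49290. By size these took places 2 and 3 of 27. It was 1.22 for Glyma08g14130/Glyma05g30940 and 1.18 for Glyma08g40970/Glyma18g15970, which are 2.33-fold and 2.26-fold ratios and places 10 and 11. The same copy led in all 21 libraries in 8 of the 27 pairs, the 4 described here and 4 of the other 23. The first place was held by another HD-Zip I pair, Glyma06g20230/Glyma04g34340, and the other 3 such pairs belong to subfamilies II and III. The median size of the log2 ratio of the other 23 pairs was 0.50.

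**Figure D5:**
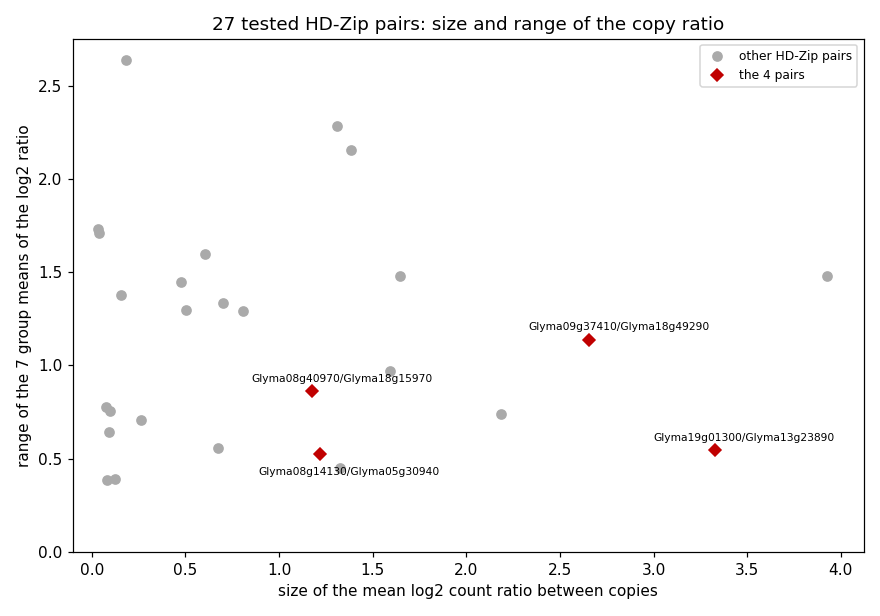
Each point is 1 of the 27 tested HD-Zip pairs, placed by the size of the mean log2 count ratio between copies over 21 libraries (horizontal) and by the range of its 7 group means (vertical, log2). The 4 pairs (red) have sizes of 1.18 to 3.33 and ranges of 0.53 to 1.14. The other pairs (gray) have ranges of 0.38 to 2.64, with a median of 1.30.

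The ratio did not differ between the 7 groups in any of the 4 pairs by limma's test, with adjusted p-values of 0.286 for Glyma19g01300/Glyma13g23890, 0.384 for Glyma08g40970/Glyma18g15970, 0.605 for Glyma08g14130/Glyma05g30940 and 0.722 for Glyma09g37410/Glyma18g49290. The unadjusted p-values were 0.159, 0.228, 0.474 and 0.722, so that 0 of 4 passed there as well. Among all 27 pairs, 5 differed (18.5%). The range of the group means of the log2 ratio was 0.53 for Glyma08g14130/Glyma05g30940 and 0.55 for Glyma19g01300/Glyma13g23890, which placed them as the 4th and 5th steadiest of 27. The ranges of Glyma08g40970/Glyma18g15970 and Glyma09g37410/Glyma18g49290 were 0.86 and 1.14, places 12 and 14. In the 9 single comparisons, 0 of 36 pair differences passed after adjustment, and 3 had an unadjusted p under 0.05, those named above. Of the 27 pairs, 3.7%, 7.41% and 3.7% passed after 1, 6 and 12 hr of dehydration and 3.7%, 0% and 0% after the same times of salt. Between the stresses 0%, 0% and 3.7% passed. Between the 18 stressed and 3 control libraries, none of the 27 pairs passed the exact permutation test after adjustment, and the 4 pairs had unadjusted p-values of 0.109 to 0.793, where the smallest the test allows is 0.000752.

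Whether the copies of a pair moved together was measured by the correlation of their log2 CPM over the 21 libraries. The p-values came from 100000 permutations and were adjusted over the 27 pairs. Libraries were shuffled without regard to group or lane, so that an effect of either on both copies also enters these p-values. For Glyma19g01300 and Glyma13g23890, Pearson's r was 0.66 (p = 0.00111, adjusted p = 0.00375) and Spearman's rho 0.64 (p = 0.00235, adjusted p = 0.00705). Without the 2 libraries farthest from the median of Glyma19g01300, r was 0.52, and within lanes 2, 3 and 4 it was 0.77, 0.77 and 0.53 (7 libraries each). For Glyma08g14130 and Glyma05g30940, r was 0.64 (permutation p = 0.00229, adjusted p = 0.00562) but rho was 0.43 (p = 0.052, adjusted p = 0.0878). Without the 2 farthest libraries r was 0.30, so that the pooled value rests largely on those libraries, although r was 0.73, 0.75 and 0.70 within the lanes.

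For Glyma09g37410 and Glyma18g49290, r was 0.53 (permutation p = 0.0134, adjusted p = 0.0278) and rho 0.54 (p = 0.0127, adjusted p = 0.0264). It was 0.49 without the 2 farthest libraries and 0.86, 0.26 and 0.47 within lanes 2, 3 and 4. For Glyma08g40970 and Glyma18g15970, r was 0.33 (permutation p = 0.139, adjusted p = 0.167) and rho 0.28 (p = 0.226, adjusted p = 0.277), and r was 0.11 without the 2 farthest libraries and 0.06, 0.43 and 0.09 within the lanes. The copies of a pair are counted in the same libraries and share their depth and scaling. Among the 27 pairs, the 4 took places 8, 9, 13 and 22 in order of r.

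The homoeolog was not the gene with the most similar profile for any of the 8. Out of 36690 other tested genes ordered by r over the 21 libraries, Glyma05g30940 was 81st for Glyma08g14130 and Glyma08g14130 was 58th for Glyma05g30940. Glyma13g23890 was 241st for Glyma19g01300, and Glyma19g01300 86th for Glyma13g23890. In the pair Glyma09g37410/Glyma18g49290 the places were 360 and 1637, and in Glyma08g40970/Glyma18g15970 they were 4363 and 6789. The most similar profile to Glyma19g01300 was that of Glyma03g42210 (r = 0.87), followed by Glyma02g36510 (0.85) and Glyma01g40180 (0.84). For Glyma18g49290 it was Glyma20g25120 (0.86), Glyma13g32460 (0.85) and Glyma15g22500 (0.84), and for Glyma18g15970 Glyma16g01690 (0.86), Glyma17g13550 (0.85) and Glyma09g06260 (0.84). The nearest genes were Glyma13g30540 for Glyma08g40970 (0.82), Glyma20g36590 for Glyma13g23890 (0.79), Glyma07g32540 for Glyma08g14130 (0.78), Glyma01g04930 for Glyma05g30940 (0.78) and Glyma09g00250 for Glyma09g37410 (0.77). These are the highest of 36690 values each and are given as a description.

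The rest of subfamily I serves as background for these pairs. Of 26 other HD-Zip I genes with a row, 19 passed the filter. Against the control, 0 of the 19 were called at any time of dehydration or at 1 and 6 hr of salt. The study, using DESeq, did report HD-Zip I genes as DE under both stresses. Among them were Glyma01g04890, up at 6 and 12 hr of both, and Glyma16g02390, down at 6 hr of dehydration. Here Glyma01g04890 had log2 fold changes of 1.25 and 1.54 after 6 and 12 hr of dehydration (adjusted p = 0.199 and 0.117, edgeR). For Glyma16g02390 at 6 hr it was -1.26 (adjusted p = 0.571). After 12 hr of salt 3 of 19 were called, beside 12.4% of all tested genes, of which Glyma07g05800 and Glyma01g04890 rose (log2 fold change 2.37 and 1.43, adjusted p = 0.0329 and 0.0469, edgeR) and Glyma01g05230 fell (-1.67, adjusted p = 0.042). These 3 calls became 0 with lane as a term and 0 without control replicate 2, control replicate 3 or salt replicate 2 of 12 hr. Between salt and dehydration, both copies of the pair Glyma11g06940/Glyma01g38390 were higher under salt at 6 hr (1.68 and 1.71) and 12 hr (1.21 and 1.46), and Glyma01g05230 was lower at 12 hr (-1.75). These are 2 and 3 of the 19 genes, beside 14.7% and 11.6% of all tested genes, and with lane as a term none of the 5 calls was left. In the pair Glyma11g06940/Glyma01g38390, r between copies was 0.96, the highest of the 27 pairs.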

How the data were processed

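Root RNA of 21 libraries was sequenced as single-end short reads. Raw counts of uniquely mapped reads per gene model were deposited, made by the authors from alignments with GSNAP to Glyma1.0. The authors also deposited a normalized signal from DESeq 1.7.10, in which all counts of a library are divided by the same size factor (0.550 to 4.28), so that ratios between copies are the same in both tables. The counting program and its use of strand are not given in the sources used here, so that overlapping genes are uncertain, and reads shared by both copies were not counted.

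The counts were filtered with filterByExpr, scaled by TMM and tested with glmQLFit (robust) and glmQLFTest in 1 model of 7 groups (R 4.3.3, edgeR 4.0.16). Copy ratios were tested with limma 3.58.1 on log2 of the counts plus 0.5, over 27 HD-Zip pairs. Alternatives included DESeq2 1.42.0, lane as a term, a replicate block, limma on the normalized signal and each library left out in turn. Calls needed an adjusted p under 0.05 and a 2-fold change. The common biological coefficient of variation was 0.306. The scripts were tested on simulated data. The members and gene lists were chosen with earlier results of these data known. The text names the 8 members, every other HD-Zip I gene called, and the genes with the highest correlation to each member. Gene lengths, protein and promoter sequences and root markers were not analysed here, because none of the gene models matched the reference table used.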

Additional observations from a re-analysis of the deposited data

How the results depend on the processing

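The single call against the control became 0 calls of 48 with lane as a term, with only the 6 libraries compared in the model, and with limma on the normalized values plus 1 or plus 0.1, and 3 without the fold limit. It ranged from 0 to 3 with each library left out. The calls between salt and dehydration among the 8 genes were 0 and became 1 with DESeq2 (0 to 1 with libraries left out). The genes that differed over the 7 groups were 1 and became 2 with DESeq2 (1 to 2 with libraries left out). Among the other HD-Zip I genes, the 3 calls against the control became 0 without the filter on low counts, 0 with lane as a term, 5 with the 6 libraries compared, 1 with limma plus 0.1 and 8 with DESeq2 (0 to 6 with libraries left out). Their 5 calls between stresses became 3 without the filter and 0 with lane as a term (2 to 7). With lane as a term, 13 of 36 pair differences changed sign, with adjusted p of 0.29 or more, among them Glyma19g01300/Glyma13g23890 at 6 hr of salt (0.0869). The difference between stressed and control libraries in Glyma09g37410/Glyma18g49290 ranged from -0.0672 to 0.53 with libraries left out. The causes were not tested.

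The replicate numbers do not pair the libraries: deviations of libraries with the same number had a mean correlation of -0.0421 over 63 pairs, of which 17 were over 0.1. With the replicate block, the calls among the other HD-Zip I genes against the control were 1 instead of 3, and Glyma19g01300 after 6 hr of salt was called with a log2 fold change of -1.04 (adjusted p = 0.006, edgeR). The planned levels per kb of coding sequence were not run, because coding lengths of these gene models were not used here. Glyma09g37410 had the lowest level of the members, at 1 to 54 counts in a library, and the part of depth in its spread was not tested.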
